A study of Drosophila melanogaster with 2 samples.

Results

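Cluster 2 of the circulating hemocytes was made up of 52 cells, chosen by the cluster number that the study's authors deposited for each cell, out of 381 annotated circulating cells and 460 annotated cells in the whole series. These deposited numbers differ from those in the study's text. There, cluster 2 was largely made up of hemocytes attached to tumors, and cluster 3, of circulating tumor-larva cells, was the one enriched for cell division genes. Circulating hemocytes had been bled from larvae of 3 genotypes, selected by a reporter for Eater, sorted singly into a 384-well plate and sequenced with Smart-seq2, which reads whole transcripts and adds no molecular identifiers. The deposited cell annotation names the genotypes w1118 (control), Ras and P35;Ras, with 1 cell of cluster 4 left without one, and the strains listed by the study are w1118 flies with the driver BeadexMS1096-Gal4 and the EaterDsRed reporter, which were crossed to the flies that carried the tumor genes. Ras larvae carried UAS-RasV12, a dominant-active form of the Ras oncogene, and P35;Ras larvae carried p35, an inhibitor of effector caspases, together with UAS-RasV12. The study used this driver to make tumors of the salivary gland, and the hemocytes were taken from the blood of these larvae. The larvae's age and sex at bleeding were not given in the labels. Each genotype was a single pool of larvae without replicates, so no difference between genotypes or clusters was tested. The deposited sample label names w1118 salivary gland, whereas the cell annotation lists all 3 genotypes, and the genotype of each cell was taken from the annotation.

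Plasmatocytes are the macrophage-like blood cells of Drosophila, and they make up most of the hemocytes of a healthy larva. They take up debris and microbes through scavenger receptors of the Nimrod and CD36 families and secrete components of the basement membrane. Larval plasmatocytes multiply by dividing in the circulation and in patches under the cuticle, and a cell that has copied its DNA then switches on the cyclins, kinases and motor proteins that build the spindle and the cleavage furrow.

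Most cells of cluster 2 came from the tumor genotypes: 29 were P35;Ras, 20 were Ras and 3 were w1118. As a share of each genotype's cells, cluster 2 took 23.0% of 126 P35;Ras cells (exact 95% Clopper-Pearson interval 15.99% to 31.4%), 15.7% of 127 Ras cells (9.89% to 23.3%) and 2.36% of 127 w1118 cells (0.490% to 6.75%). The intervals of both tumor genotypes lay above that of w1118 and overlapped each other. These intervals cover the sampling of cells only and not variation between larvae. Cluster 0, the larger cluster of tumor cells, held 95 P35;Ras, 58 Ras and 9 w1118 cells. Within clusters 0 and 2 together, cluster 2 took 23.4% of 124 P35;Ras cells (16.3% to 31.8%), 25.6% of 78 Ras cells (16.4% to 36.8%) and 25.0% of 12 w1118 cells (5.49% to 57.2%). The intervals of all 3 genotypes overlapped.

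**Figure D1:**
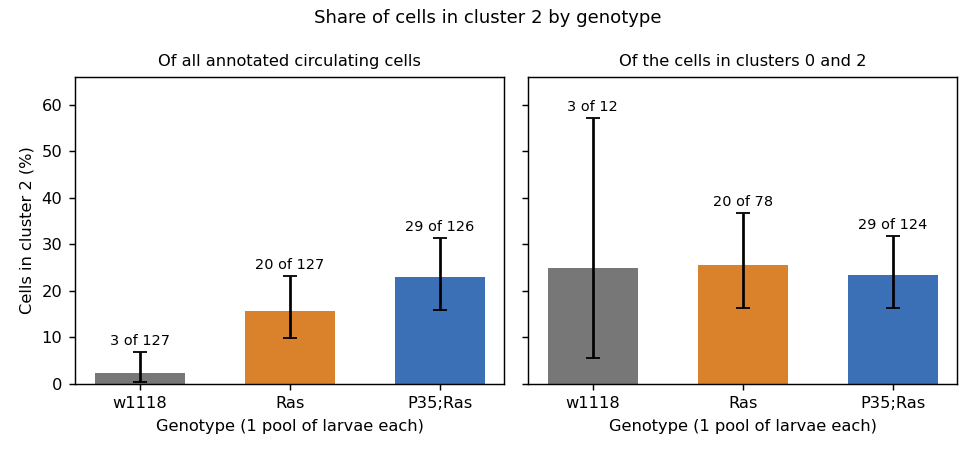
Percent of circulating cells in cluster 2 by genotype, of all annotated cells of the genotype (left) and of its cells in clusters 0 and 2 (right). Bars are shares and whiskers exact 95% Clopper-Pearson intervals; on the left the shares were 2.36%, 15.7% and 23.0%, and on the right they lay between 23.4% and 25.6%.

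On the plate, w1118 cells filled columns 1 to 8, Ras cells columns 9 to 16 and P35;Ras cells columns 17 to 24, so that genotype and plate position cannot be told apart. Cluster 2 cells stood in all 8 columns and 11 of 16 rows of the Ras wells, and in all 8 columns and 14 of 16 rows of the P35;Ras wells. Reads per cell ranged from 254192 to 903275 in cluster 2 (median 599821) and from 6981 to 922750 in cluster 0 (median 604268). More genes were read in cluster 2, with a median of 5143 per cell (4282 to 6011) against 4421 in cluster 0 (1380 to 7723). After every cell was thinned to 300000 reads, which left out 4 cells of cluster 2 and 6 of cluster 0, the medians were 4974.5 and 4283.5, and 14 of 156 cluster 0 cells lay above the median of cluster 2. Mitochondrial genes took 0.538% to 2.86% of the reads in cluster 2 (median 1.45%) and 0.503% to 30.6% in cluster 0 (median 1.75%). No doublet caller was run. All 52 cells of cluster 2 held more than 4000 genes, a limit that the study's methods state for possible doublets. So did 133 of 162 cells of cluster 0 and 286 of the 329 cells outside cluster 2. A filter at that limit would leave no cell of cluster 2, but the deposited annotation kept these cells. Another part of the methods states a higher limit on genes per cell, which no cell of cluster 2 exceeded.

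The plasmatocyte markers Hml and NimC1 were read in all 52 cells of cluster 2. Gene positions are given on the Dm6 build, as the deposited table has them. Hml (hemolectin, FBgn0029167, chr3L:13846054-13860001), a clotting protein of plasmatocytes, ranged from 5217 to 14978 CPM with a median of 9703 per cell in cluster 2 and from 8.32 to 15507 CPM with a median of 9546 in cluster 0. Reads summed over the cells and divided by their total (CPM, counts per 1000000 reads) gave 10124 CPM (10088 to 10159), where the 95% interval is an exact Poisson interval, in cluster 2 and 9196 CPM (9177 to 9215) in cluster 0. Copies of an amplified cDNA are not independent molecules, so this interval covers counting error only and is too narrow even for that. NimC1 (FBgn0259896, chr2L:13973158-13976769), a receptor for bacteria on plasmatocytes, ranged from 289.6 to 4620.2 CPM with a median of 2166 in cluster 2 and from 3.34 to 7522 CPM with a median of 2176 in cluster 0. Both genes overlapped in the 2 clusters across most of their range. The eater gene, which encodes the phagocytic receptor whose reporter was used in the sort, was read in 52 of 52 cells of cluster 2 and 161 of 162 of cluster 0.

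Summed over the 10 genes of the plasmatocyte list, cells of cluster 2 ranged from 21097 to 38601 CPM with a median of 29544, and cells of cluster 0 from 2769 to 45388 CPM with a median of 29916. Cluster 1, most of whose cells were w1118, had a median of 8521 CPM, and every cell of cluster 2 lay above all cells of cluster 1. Of markers of other cells, the salivary gland list stayed at or below 18.9 CPM in any cluster 2 cell and the fat body list at or below 169.9 CPM. Atilla, the defining marker of lamellocytes, was read in 3 of 52 cells at 0.131 CPM, against 16 of 162 cells at 198 CPM in cluster 0. The crystal cell list had a median of 10.9 CPM in cluster 2, with a read in 36 of 52 cells, and of 1.52 CPM in cluster 0, with a read in 84 of 162. Summed over cells, the list was lower in cluster 2, at 149 CPM against 538 CPM in cluster 0. Its highest cell of cluster 2, at 2897 CPM, was 1 of the 3 w1118 cells, and its highest cell of cluster 0 stood at 75274 CPM. In cluster 2, lz, the factor that specifies crystal cells, was read in 2 of 52 cells.

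The question of the first comparison was what set cluster 2 apart from cluster 0, the other cluster of tumor cells. Genes of mitosis and cytokinesis stood out most: 39 of 46 tested genes of the mitosis list were at least 2-fold higher in cluster 2 and none was 2-fold lower, with a median log2 ratio of 1.75. Genes of DNA replication came next, with 17 of 28 at least 2-fold higher, none lower, and a median of 1.23. A gene counted as tested if its level reached 50 CPM in whichever group was higher and if 25% or more of that group's cells had a read. Over the 3644 tested genes, 209 were at least 2-fold higher in cluster 2 (5.74%), 30 were at least 2-fold lower (0.823%), and the median log2 ratio was 0.05. The clusters were built by the authors from these same genes, so these ratios describe the clusters and are no evidence that they differ. Of the 209 higher genes, 39 were in the mitosis list, 17 in the DNA replication list, 6 in the list of G1 and checkpoint control and 2 in that of heat shock, while 145 were in no list. The share of all tested genes that were in no list is not given here.

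Per cell, the summed reads of the 53 mitosis genes ranged from 4255 to 14003 CPM with a median of 10554 in cluster 2 and from 826 to 7906 CPM with a median of 2794 in cluster 0. None of the 329 cells outside cluster 2 reached its median, and 20 cells, all in cluster 0, lay above its lowest cell. The highest cells of clusters 1, 3 and 4 stood at 1959, 2668 and 3026 CPM, below every cell of cluster 2. A cell of cluster 2 had reads of 40 to 53 of the 53 genes (median 48.5), and a cell of cluster 0 of 6 to 47 (median 29.5). With cells thinned to 300000 reads these were 39 to 52 genes (median 48) in cluster 2 and 10 to 47 (median 29) in cluster 0.

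**Figure D2:**
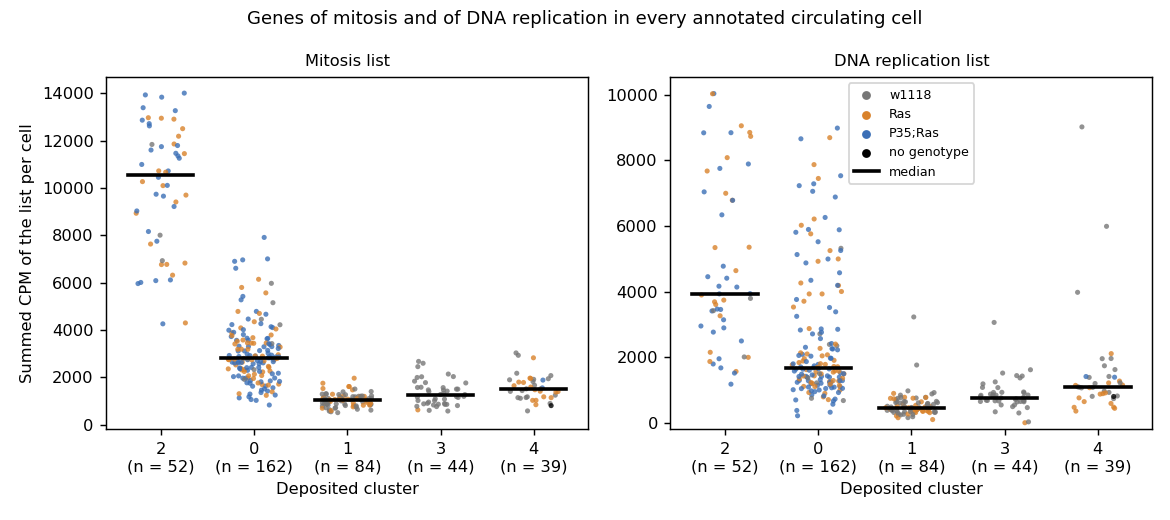
Summed CPM of the mitosis list (left) and of the DNA replication list (right) in each annotated circulating cell, by deposited cluster and coloured by genotype, with black lines at the medians. Cluster 2 had medians of 10554 and 3932 CPM, cluster 0 of 2794 and 1681 CPM, and the 2 clusters overlapped more in replication than in mitosis.

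Kinases of mitosis were among the genes with the largest ratios. Polo (FBgn0003124, chr3L:20309654-20313466), the Polo-like kinase that acts on centrosomes, kinetochores and the cleavage furrow, ranged from 75.2 to 1499.97 CPM with a median of 693 in cluster 2, where it was read in 52 of 52 cells. In cluster 0 it was read in 93 of 162 cells and ranged from 0 to 698 CPM with a median of 52.9. A single cluster 0 cell lay above the median of cluster 2, and the summed levels were 761 CPM (751 to 771) and 102 CPM (100.1 to 104), a log2 ratio of 2.90 (2.87 to 2.93). For aurA, the Aurora A kinase of the spindle poles, 48 of 52 cells of cluster 2 and 35 of 162 of cluster 0 had a read. Its log2 ratio was 2.83 (2.74 to 2.91), and 6 cells of cluster 0 exceeded the median of cluster 2.

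The machinery of cytokinesis was higher at several points. Scra (FBgn0261385, chr2R:7590119-7595242), which encodes anillin, a scaffold of the contractile ring, ranged from 25.8 to 1148 CPM with a median of 626 in cluster 2 and from 0 to 683 CPM with a median of 50.7 in cluster 0. Its log2 ratio of 2.92 (2.88 to 2.95) meant a 7.56-fold higher level, and 1 of 162 cluster 0 cells lay above the median of cluster 2. Tum and pav, whose products together form the centralspindlin complex, had log2 ratios of 2.75 and 2.72. Feo, the Drosophila PRC1 that bundles microtubules in the midzone, was read in 52 of 52 cells of cluster 2 and 84 of 162 of cluster 0, with a log2 ratio of 2.95 (2.88 to 3.03). Sip2 (FBgn0031878, chr2L:6961516-6964074), named for its binding to septins, ranged from 0 to 1041 CPM with a median of 521 in cluster 2 and from 0 to 519.98 CPM with a median of 1.95 in cluster 0. No cell outside cluster 2 reached the median of cluster 2 in tum or sip2, although single cells of cluster 2 had no read of them.

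Named genes also included motors and other spindle proteins. Klp67A (FBgn0004379, chr3L:9362636-9367046), a kinesin-8 that shortens spindle microtubules, was read in 50 of 52 cells of cluster 2 and 67 of 162 of cluster 0, and ranged from 0 to 580.05 CPM with a median of 306 and from 0 to 512 CPM with a median of 0. Its log2 ratio was 2.88 (2.83 to 2.94). Cmet, the Drosophila CENP-E kinesin of the kinetochore, was read in 50 of 52 cells of cluster 2 and 58 of 162 of cluster 0. The log2 ratio of ncd, a minus-end-directed kinesin, was 2.36, and that of asp, a spindle pole protein, was 2.66. Msd1, a subunit of the augmin complex that nucleates microtubules within the spindle, was read in 51 of 52 cells of cluster 2 at 84.8 CPM and in 65 of 162 of cluster 0 at 10.5 CPM. In these genes between 3 (ncd) and 15 (asp) of the 162 cluster 0 cells lay above the median of cluster 2, except msd1, where it was 1.

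The 12 genes with the largest ratios over cluster 0 also held some that belong to other processes or to none that is known here. Hsp68 (FBgn0001230, chr3R:24055080-24057310), a heat-inducible chaperone of the Hsp70 family, had the largest log2 ratio, 3.95 (3.81 to 4.09). It was read in 32 of 52 cells of cluster 2 and 21 of 162 of cluster 0, at 79.3 and 5.12 CPM, so that many cells of cluster 2 had none. Hsp70-type genes are similar in sequence, and how reads were shared among them was not examined here. Squ, known from the piRNA pathway of the ovary, was read in 39 of 52 and 22 of 162 cells with a log2 ratio of 3.41 (3.26 to 3.57). It lies within the span of grp, the checkpoint kinase Chk1, on the same strand and shares 223 of its 1372 exon bases with it, so reads of the 2 genes may not be told apart and the squ value is uncertain. Dah, known from the cortex of the early embryo, CG12702 and msb1l had log2 ratios of 2.87, 2.95 and 2.76, and were read in 42 of 52, 50 of 52 and 51 of 52 cells of cluster 2.

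**Figure D3:**
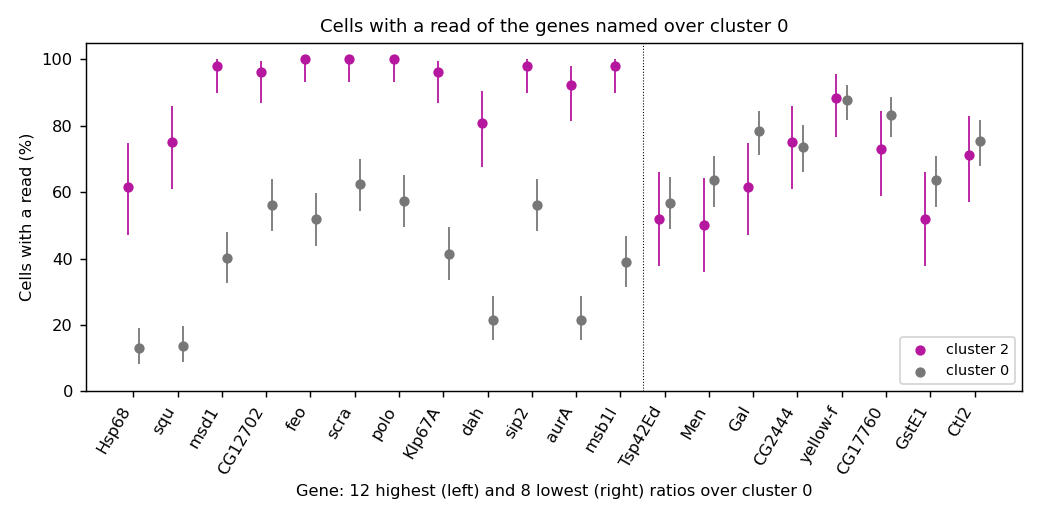
Percent of cells with a read, with exact 95% Clopper-Pearson intervals, for the genes at both ends of the cluster 2 over cluster 0 ratio, 12 higher and 8 lower. Polo, scra and feo were read in 52 of 52 cluster 2 cells, whereas the intervals of the 2 clusters overlapped for each of the 8 lower genes.

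Genes of DNA replication were higher in cluster 2 as a group, but cells of both clusters overlapped. Their summed level ranged from 1176 to 10035 CPM with a median of 3932 in cluster 2 and from 213 to 8983 CPM with a median of 1681 in cluster 0, and 32 of 162 cluster 0 cells lay above the median of cluster 2. RPA1, the large subunit of the single-strand binding protein, was read in 52 of 52 cells of cluster 2 and had a log2 ratio of 1.05 (1.01 to 1.08). PCNA, the sliding clamp of the DNA polymerases, ranged from 0 to 1235 CPM with a median of 222 in cluster 2 and from 0 to 1119 CPM with a median of 46.7 in cluster 0, a log2 ratio of 1.35 (1.31 to 1.39). For RnrL, the large subunit of ribonucleotide reductase, the log2 ratio was 1.32 (1.28 to 1.35), and for Mcm2, a subunit of the replicative helicase, 1.59 (1.55 to 1.64). Between 16 (Mcm2) and 32 (PCNA) of the 162 cells of cluster 0 exceeded the medians of cluster 2 in these 4 genes, more than in polo or scra.

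Among the 52 cells of cluster 2, the levels of both lists varied together, with a Spearman correlation over cells of 0.55. In the 162 cells of cluster 0 the same correlation was 0.26. These cells share a plate and the correlations are descriptions, with a correlation of 0.37 between the mitosis list and the number of reads in cluster 2 beside them. Cells of cluster 0 reached 8983 CPM of the replication list without passing 7906 CPM of the mitosis list. In cluster 2, 4 of 52 cells lay below the cluster 0 median of replication, and the cluster spanned most of the range of cluster 0. Reads of 19 to 44 of the 46 replication genes were found in a cell of cluster 2 (median 36.5) and of 3 to 43 in a cell of cluster 0 (median 22).

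**Figure D4:**
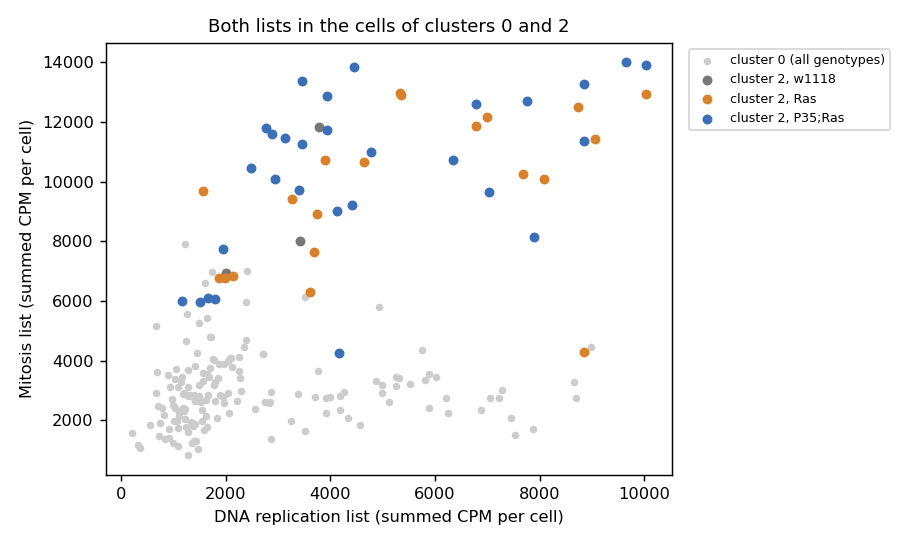
Summed CPM of the mitosis list against that of the DNA replication list in each cell of cluster 2 (coloured by genotype) and cluster 0 (grey). Cluster 2 cells lay between 4255 and 14003 CPM of mitosis genes, while cluster 0 cells went up to 8983 CPM of replication genes without passing 7906 CPM of mitosis genes.

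Regulators of the cell cycle were higher in part. Of 14 tested genes of G1 and checkpoint control 6 were at least 2-fold higher in cluster 2 and 0 lower, beside 5.74% of all tested genes higher. The median log2 ratio was 0.71, and 10 of the 14 were above 0. Grp, whose reads may not be told apart from those of squ, had a log2 ratio of 1.49 (177 against 63.2 CPM). Cdk4, the kinase partner of cyclin D, had one of 1.00. Myc and Dp, a transcription factor of cell growth and the partner of E2F, stood at 0.03 and 0.11. Stg, the Cdc25 phosphatase that starts mitosis, was read in 51 of 52 cells of cluster 2 and 108 of 162 of cluster 0 and had a log2 ratio of 1.73 (1.69 to 1.76).

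Genes of most other functions differed from cluster 0 by less than 2-fold. None of the tested genes of the lists for plasmatocytes (9), phagocytosis (12), basement membrane (12), actin and migration (19), Ras, MAPK and JNK targets (10), glycolysis (10), V-ATPase (16), proteasome (31), ribosome biogenesis (13), chromatin assembly (13) or cytosolic ribosomal proteins (84) differed by 2-fold, beside 5.74% of all genes higher and 0.823% lower. Nor did any of the 33 mitochondrial ribosomal proteins, the 56 nuclear genes of the respiratory chain or the 11 tested mitochondrial genes, whose medians were 0.41, 0.05 and -0.32. Cytosolic ribosomal proteins had a median log2 ratio of -0.16 and chromatin assembly genes one of 0.30. Of the 6 tested genes of the tubulin list, 1 was at least 2-fold lower, betaTub60D, which is described among the genes lower than in all others, and 0 were higher, with a median of 0.03. AlphaTub85E, outside that list, had a log2 ratio of -2.86, with 32.2% of the reads of cluster 0 in a single cell. Of 16 tested heat shock and chaperone genes, 2 were at least 2-fold higher, Hsp68 and Hsp83 (1.01), and their median was 0.11. Antimicrobial peptides were read in 14 of 52 cells and summed to at most 23.2 CPM in a cell of cluster 2. In cluster 0 they were read in 36 of 162 cells and reached 352 CPM in a cell. Summed over cells they were at 1.87 CPM in cluster 2 and 13.7 CPM in cluster 0, and none of them reached the level to be tested. Ras85D, the gene of which RasV12 is an activated form, had a log2 ratio of -0.25.

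Genes at least 2-fold lower in cluster 2 than in cluster 0 were fewer than those higher, 30 against 209. Men (FBgn0002719, chr3R:12713103-12722442), the NADP-dependent malic enzyme, was read in 26 of 52 cells of cluster 2 and 103 of 162 of cluster 0, ranged from 0 to 580.1 CPM with a median of 0.731 and from 0 to 4437 CPM with a median of 72.6, and had a log2 ratio of -1.88 (-1.95 to -1.82). The tetraspanin Tsp42Ed had a log2 ratio of -1.92 (-1.99 to -1.84), with a read in 27 of 52 cells of cluster 2 and 92 of 162 of cluster 0. Gal, a beta-galactosidase, stood at 30.8 CPM against 103 CPM, a log2 ratio of -1.75 (-1.84 to -1.65). GstE1, a glutathione transferase, yellow-f, a dopachrome conversion enzyme, and Ctl2, a choline transporter-like protein, had log2 ratios of -1.48, -1.53 and -1.34. CG2444 and CG17760 were at -1.54 and -1.48. Cells of the 2 clusters overlapped in each of these 8 genes. The rule for naming genes had already left out any in which a cell held over 25% of the reads of cluster 0. PPO2, a prophenoloxidase of crystal cells and the only tested gene of their list, had a log2 ratio of -1.97, but a single cell held 56.9% of the PPO2 reads of cluster 0 and PPO2 was read in 30 of 52 cells of cluster 2 against 70 of 162 of cluster 0. Per cell, the lamellocyte list had medians of 314 and 316 CPM in clusters 2 and 0, but its highest cells stood at 1271 and 29096 CPM. Summed over cells it was at 332 and 1032 CPM, and 1 of its 2 tested genes was at least 2-fold lower in cluster 2.

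The comparison with cluster 0 was repeated within the cells of each tumor genotype. Of the 209 genes higher over cluster 0, 176 were at least 2-fold higher among Ras cells alone and 183 among P35;Ras cells alone, 150 were so in both, and all 209 lay on the same side of 0 in both. Of the 30 lower genes, 11 passed 2-fold among Ras cells, 27 among P35;Ras cells and 8 in both, and 24 lay on the same side. Polo had a log2 ratio of 2.50 in Ras and 3.07 in P35;Ras cells, scra 2.86 and 2.96, and Klp67A 3.15 and 2.73. Msb1l differed more, with 1.81 and 3.40, as did Hsp68, with 3.74 and 5.96. Tsp42Ed was lower by 5.09-fold in P35;Ras cells and by 1.47-fold in Ras cells. The whole set of cells entered both the choice of the genes and these ratios, so the counts describe how the genotypes contribute and are not independent of each other.

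**Figure D5:**
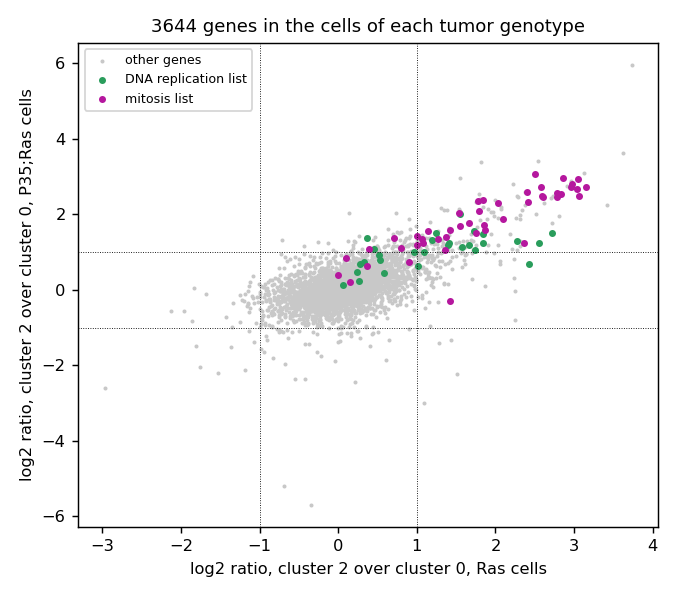
Log2 ratio of summed CPM of cluster 2 over cluster 0 in Ras cells (x axis) and in P35;Ras cells (y axis) for the 3644 tested genes, with dotted lines at 2-fold. Genes of the mitosis list (purple) and of DNA replication (green) lay mostly in the upper right, and 150 genes were at least 2-fold higher in both genotypes among the 209 higher over cluster 0.

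The 3 w1118 cells of cluster 2 were compared with the w1118 cells of cluster 0. Their mitosis list stood between 6924 and 11834 CPM, above the 9 w1118 cells of cluster 0, which lay between 1908 and 5967 CPM. They had reads of 47 to 49 of the 53 mitosis genes, against 14 to 47 in the w1118 cells of cluster 0. Polo was read in 3 of 3 of them and ranged from 577 to 869 CPM with a median of 647. In DNA replication the groups overlapped, at 2006 to 3791 CPM and 676 to 5318 CPM. Hml was from 6924 to 11164 CPM with a median of 8803 in these 3 cells. The crystal cell list ranged from 0 to 2897 CPM with a median of 1365 in these 3 cells and from 0 to 60.4 CPM with a median of 0 in the 9 w1118 cells of cluster 0. PPO1 and PPO2, prophenoloxidases of crystal cells, were read in 2 of 3 and 2 of 3 of them.

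Against all 329 other annotated circulating cells genes of division again had the largest ratios. Of 3697 tested genes, 338 were at least 2-fold higher in cluster 2 (9.14%), 174 were at least 2-fold lower (4.71%), and the median log2 ratio was 0.14. The mitosis list had 42 of 46 genes at least 2-fold higher with a median of 2.35, the DNA replication list 24 of 28 with a median of 1.84 and none lower in either. Of the higher genes, 195 were shared with the comparison over cluster 0, which was 93.3% of the genes higher over cluster 0 and 57.7% of those higher over all others. Both comparisons share the cells of clusters 2 and 0. Klp67A was at 287 CPM against 19.9 CPM (log2 ratio 3.85 (3.80 to 3.91)) and was read in 81 of 329 of the other cells. Scra, squ, polo, sip2 and tum had log2 ratios of 3.82, 3.82, 3.76, 3.75 and 3.69. CG12702, dah, asp, feo, cmet and pav followed between 3.68 and 3.58.

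Genes lower than in all other cells were mostly low in cluster 0 as well. Of the 174 lower genes, 143 were also at least 2-fold lower in cluster 0 than in clusters 1, 3 and 4, and 143 differed by less than 2-fold between clusters 2 and 0. Dtg (FBgn0038071, chr3R:12648058-12652910), named as a target of the Dpp pathway, had a log2 ratio of -9.01 (-9.42 to -8.64), with 1.83 CPM in cluster 2, 5.92 in cluster 0 and 947 in all others. Its highest cell of cluster 2 stood at 48.2 CPM. The ecdysone-responsive receptors Eip78C and Hr4 had log2 ratios of -5.27 and -5.01, and over cluster 0 of -1.15 and -0.02. The small heat shock genes Hsp26 and Hsp23 were at -5.40 and -4.97, with Hsp23 at 169 CPM in cluster 2, 164 in cluster 0 and 5293 in all others. Among P35;Ras cells only, almost all of which were in clusters 0 and 2, these 2 ratios turned to 0.93 and 0.13. Sid, a nuclease named for its induction by stress, had a log2 ratio of -4.89 and CG6287 one of -6.34.

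BetaTub60D (FBgn0003888, chr2R:24305881-24313099), a beta-tubulin, was also lower, at 56.9 CPM in cluster 2 and 3029 in all others (log2 ratio -5.73 (-5.80 to -5.67)). In this gene cluster 2 was below cluster 0 too, by a log2 ratio of -4.05, but a single cell held 28.2% of the reads of cluster 0. Within genotypes that ratio was -0.35 among Ras cells and -5.69 among P35;Ras cells. Its median was 17.0 CPM in cluster 2 and 43.3 CPM in cluster 0. Of the actin and migration list, 6 of 19 tested genes were at least 2-fold lower than in all others and none higher, beside 4.71% of all tested genes lower. Their median was -0.77, and Act5C, a cytoplasmic actin, was at 9219 against 21146 CPM. Cluster 0 was as low in this list, which summed to 26176 CPM in cluster 2, 25845 in cluster 0 and 52554 in all others. NimC2, a Nimrod receptor, was at 0.131 CPM in cluster 2, 2.09 in cluster 0 and 167 in all others, and its place among the genes named here was chosen after its values were seen. Hml and Sr-CI, a scavenger receptor, were higher than in all others by log2 ratios of 0.81 and 0.91, and Ppn, a matrix protein of the basement membrane, by 1.06. Summed over their genes, their lists were also higher than in all others, and close to cluster 0. The plasmatocyte list was at 29925 CPM in cluster 2, 29449 in cluster 0 and 21144 in all others. For phagocytosis these were 13761, 14332 and 10318 CPM, and for basement membrane 43919, 45995 and 38194 CPM. The median over single genes, which does not weigh them by level, was near 0. The median log2 ratios were 0.05 for plasmatocyte genes (6 of 10 tested above 0) and 0.02 for phagocytosis genes (8 of 13). For basement membrane genes the median was 0.11 (6 of 12).

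Inside cluster 2, the 29 P35;Ras and 20 Ras cells were compared with each other. None of 48 tested mitosis genes differed by 2-fold, and per cell the list ranged from 4255 to 14003 CPM with a median of 10989 in P35;Ras and from 4294 to 12964 CPM with a median of 10179 in Ras cells. Of 34 tested replication genes 1 was at least 2-fold lower in P35;Ras and none higher, with a median of -0.25, and per cell the list had medians of 3936 and 4989 CPM. Both lists overlapped across the genotypes over most of their range. Over 3764 tested genes 75 were at least 2-fold higher in P35;Ras (1.99%) and 58 lower (1.54%), with a median log2 ratio of -0.02. None of the 75 was in any list, but the lists do not hold every gene of a function. The scavenger receptor ninaD and the alpha-tubulin alphaTub85E, described below, were among the 75. The share of all tested genes that were in a list is not given here. Among the lower genes was betaTub60D, with a log2 ratio of -1.76. Each genotype is a pool on its own part of the plate, so a difference between them cannot be told apart from one between pools or plate columns.

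Among genes higher in P35;Ras cells of cluster 2, ninaD (FBgn0002939, chr2L:18081628-18083608), a scavenger receptor of the CD36 family known for carotenoid uptake, was read in 27 of 29 P35;Ras cells and 0 of 20 Ras cells. Its level ranged from 0 to 465 CPM with a median of 90.3 in P35;Ras cells and was 0 in every Ras cell, whose share of cells with a read has an exact upper 95% limit of 16.8%. With the Ras group set to 3 counts over its summed reads, the level in P35;Ras cells was 493-fold higher, a value that depends on this setting. Cluster 0 held the same split, with a read in 64 of 95 and 2 of 58 cells. CG18088 was read in 15 of 29 and 1 of 20 cells (log2 ratio 3.52 (3.14 to 3.91)), and in cluster 0 in 44 of 95 and 0 of 58. Sirup, which helps to assemble mitochondrial complex II, ranged from 0 to 1117 CPM with a median of 116 in P35;Ras and from 0 to 63.4 CPM with a median of 27.2 in Ras cells, with a log2 ratio of 3.07 (2.91 to 3.24) here and 2.25 in cluster 0.

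CG42566 had log2 ratios of 2.20 (2.10 to 2.31) inside cluster 2 and 1.97 inside cluster 0, with medians of 307 and 52.7 CPM per cell in P35;Ras and Ras cells of cluster 2. AlphaTub85E, an alpha-tubulin, had 2.47 (2.32 to 2.64) and 6.57, but was read in 16 of 29 and 7 of 20 cells, and in cluster 0 a single P35;Ras cell held 32.4% of its reads. Among genes lower in P35;Ras cells, CG33465 (FBgn0053465, chr2R:15819114-15821114) was read in 15 of 29 P35;Ras and 18 of 20 Ras cells of cluster 2. It ranged from 0 to 939 CPM with a median of 1.19 and from 0 to 1914 CPM with a median of 1040.2, a log2 ratio of -2.80 (-2.87 to -2.74). Inside cluster 0 it stood at 169 and 676 CPM. CG18547, ebd1, an activator in Wingless signaling, and Glyp, glycogen phosphorylase, had log2 ratios of -2.16, -2.03 and -1.88 inside cluster 2 and of -0.23, -0.59 and -0.49 inside cluster 0. Whether these ratios differ between the clusters was not tested.

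The non-coding RNA roX1, part of the complex that raises transcription of the male X chromosome, had a log2 ratio of -2.47 (-2.53 to -2.40) between P35;Ras and Ras cells of cluster 2. It was read in 10 of 29 and 14 of 20 cells and ranged from 0 to 2764 CPM with a median of 0 and from 0 to 2140.1 CPM with a median of 154. The sex of the larvae was not given, and the part of male and female larvae in these differences was not tested. Of 16 tested heat shock and chaperone genes, 2 were at least 2-fold lower in P35;Ras cells, beside 1.54% of all tested genes. All 16 were below 0 in log2 ratio, with a median of -0.51, beside a median of -0.02 over all tested genes. The share of all tested genes below 0 is not given here. Hsp83, the Drosophila Hsp90, ranged from 2.37 to 5243 CPM with a median of 943 in P35;Ras and from 418 to 9401 CPM with a median of 2027 in Ras cells of cluster 2, a log2 ratio of -1.56 (-1.59 to -1.54), with -1.06 inside cluster 0. Hsp68 was read in 18 of 29 P35;Ras and 13 of 20 Ras cells of cluster 2, a log2 ratio of -1.48 (-1.60 to -1.36), and inside cluster 0 the ratio was -3.71.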

How the data were processed

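The authors sequenced single-end Smart-seq2 libraries of sorted circulating hemocytes and deposited whole-number read counts per gene and well, with an annotation of each cell that gives its genotype and Seurat cluster. The submitters' processing notes name STAR (version 2.7.2), featureCounts (version 2.0.0) and the Dm6 build with annotation release 6.37. Coordinates are those of the deposited table, from the first to the last exon base, and names for its 17612 identifiers came from a reference table or, for 26, from the RefSeq gene of the same assembly with the same start and end, and 38 had none. The mitochondrial percent was 0 throughout the deposited annotation and was recomputed from the counts.

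For each group, the counts of all its cells were added and scaled to its total to give CPM (counts per 1000000 reads), with exact 95% Poisson intervals, and ratios with exact intervals, while shares of cells have exact Clopper-Pearson intervals. Intervals cover counting error only. A gene was tested for fold when its level reached 50 CPM in the higher group, of whose cells 25% or more had a read, and was called at 2-fold. A group at 0 was set to 3 counts, so that a ratio to it depends on this setting. No p-value was computed, since each genotype was 1 pool and the clusters were built from the same genes.

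Named genes were the 12 highest and 8 lowest ratios of cluster 2 over each reference, and the 5 at each end inside cluster 2, among genes read in at least 50% of the higher group's cells with no cell holding over 25% of its reads. The 4 members of each list with the highest CPM, and Hml and NimC1, could also be named. The members and the 27 lists were chosen with earlier results of these data known, and 1 listed gene (Hop) was not matched. Alternatives were the mean over cells, a filter on cells, leaving out the top cell of each gene, TMM factors (edgeR 4.0.16 in R 4.3.3), totals without mitochondrial and rRNA genes, thinning to 300000 reads, other filters on genes and single genotypes. Python 3.11.15 with numpy 2.4.6, pandas 2.3.3 and scipy 1.17.1 was used, and the calculations were tested on simulated data. Hemocytes attached to the tumor were not analysed here beyond their number, and 3 wells without annotation were left out.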

Additional observations from a re-analysis of the deposited data

How the results depend on the processing

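Of 100 values that the alternatives gave for the counts of called genes, list counts, shares and genes per cell, 91 stayed within 1.5 times or within their spread. The log2 ratios of single named genes were less stable: 234 values were counted as unchanged, 144 as moved and 2 as reversed in sign. With genes kept from 10 CPM, 352 genes were at least 2-fold higher and 89 lower in cluster 2 than in cluster 0, 583 higher and 268 lower than in all others, and 261 higher and 198 lower in P35;Ras than in Ras cells inside cluster 2, and 39 replication genes were higher than in all others. Among P35;Ras cells only, 72 genes were lower than in cluster 0 and 75 lower than in all others, and Hsp26 and Hsp23 turned to log2 ratios of 0.93 and 0.13 over all others. All 20 named genes kept their sign over cluster 0 in the 8 alternatives with a ratio per gene, and 18 of 20 did so over all others among P35;Ras cells only. These genes were chosen for the most extreme ratios in the same cells, so a kept sign says little about how stable they are. The median of the tested mitosis genes over cluster 0 lay between 1.66 and 1.80 and that of the replication genes between 1.07 and 1.23, and over all others they lay between 1.76 and 2.42 and between 1.12 and 1.91. TMM factors shifted the median of all genes by -0.20 over all others, and by -0.06 over cluster 0. The median number of genes per cell was 722 higher in cluster 2 than in cluster 0, and 691 higher after thinning. No paired analysis was possible because each genotype was a single pool with no replicate. Genes at few reads in 52 cells, and differences between larvae, are limited by this depth and by the absence of replicates.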
